A study of Homo sapiens with 4 samples.

Results

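The TGF-beta and BMP pathway genes are 56 named genes of this series, chosen by role as ligands, receptors, SMADs, inhibitors and immediate targets. This choice, like that of the other gene lists below, was made with earlier results of these data known. All 56 were found by symbol among the 23228 genes counted. The cells were MDA-MB-231, an established human cell line from a triple negative breast tumour, and RNA was sequenced. Cells with high aldehyde dehydrogenase activity, taken as cancer stem cells, had been sorted with the ALDEFLUOR reagent and grown in MammoCult medium, per the labels. Both groups carried a stably expressed lentiviral short hairpin RNA (shRNA), a control shRNA in 2 libraries and a KDM1A shRNA in 2 libraries. KDM1A (LSD1) removes methyl groups from lysine 4 of histone H3. The labels name a single KDM1A shRNA vector. The design text speaks of runs in duplicate, and no label gives each library a culture of its own. The p-values below then rest on the spread of these 4 libraries alone, possibly a technical one, and effects of the hairpin or of the culture cannot be told apart from loss of KDM1A.

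TGF-beta, activin, nodal and bone morphogenetic protein (BMP) ligands are secreted dimers that bring type I and type II receptor kinases together. TGF-beta and activin receptors phosphorylate SMAD2 and SMAD3, and BMP receptors phosphorylate SMAD1, SMAD5 and SMAD9. Both kinds join SMAD4 and enter the nucleus, where ID1 to ID4 are textbook BMP targets and SMAD7, SKIL and PMEPA1 are targets that feed back on the TGF-beta branch. In breast cancer cells the TGF-beta branch is known for its part in the mesenchymal state and in invasion, and the BMP branch for its part in differentiation.

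Reads in genes ranged from 23902900 to 26923678 per library, and levels are given as CPM, the counts scaled by the library's TMM-adjusted total. A gene at 0 reads is allowed 3 counts, which is 0.112 to 0.125 CPM and covers counting error only. KDM1A reads numbered 4660 and 4059 in the controls against 561 and 649 with the KDM1A shRNA, which matched the labels. Pairs of values below are in the order library 1, library 2. All 10 markers of MDA-MB-231 that were looked up, among them VIM, CD44 and AXL, were detected. Of these, 6 were called higher, 3 were called lower (CD44, MSN, ANXA1) and LAMB3 was not called. Their summed level was 6417 and 6444 CPM in the controls and 7266 and 7334 CPM after knockdown. Of the fibroblast markers 3 of 4 tested were higher (COL1A1, PDGFRB, LUM) and DCN lower, which took their sum from 145 and 141 to 109 and 101 CPM, while COL1A2 and COL3A1 had at most 7 reads. The neural sum went from 32.3 and 32.9 to 32.5 and 36.9 CPM, with 2 of 4 tested higher (MAP2, TUBB3) and 2 lower (NEFL, SYP). The leukocyte sum, nearly all CD68, went from 179 and 182 to 127 and 125 CPM with both tested markers (CD68, CD14) lower, while PTPRC and CD3E had at most 4 reads in any library. The luminal sum went from 474 and 477 to 536 and 547 CPM, with 3 of 6 tested higher (KRT19, EPCAM, GATA3), 3 lower (XBP1, FOXA1, TFF1) and ESR1 at 9 reads or fewer. The summed endothelial markers (PECAM1, CDH5, VWF, KDR) went from 102 and 94.4 CPM to 53.7 and 55.8 CPM, with 4 of 4 lower. Among these markers FOXA1, TFF1, NEFL, CDH5 and VWF passed the filter on low counts through the controls alone and could only be lower. That limits these splits, and over all genes tested 27.3% were called higher and 28.8% lower. CDKN2A, MTAP and CDKN2B, neighbours in band 9p21 that are known to be missing from the MDA-MB-231 genome, summed to 23.2 and 25.4 CPM in the controls and to 1.17 and 1.32 CPM after knockdown. Both groups thus held transcripts that go against the labelled line, with far more in the controls. In the knockdown libraries 13 and 19 reads of CDKN2A and 15 and 14 of MTAP remained. CDKN2B passed the filter through the controls alone and could only be lower. The transcripts of this locus fell together with several members below. Since both controls hold them, no comparison could be made without them.

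After KDM1A knockdown the shares within a family shifted most in the BMP ligands, the activin subunits and the ID genes. TGFBR2 kept 96.1% to 96.5% of the summed level per length of the type II receptors. The part in these changes of the transcripts that go against the labelled line was not tested. BMP4 and the feedback gene PMEPA1 rose more than 3-fold, while BMP2, BMP6, BMP7, the activin subunit INHBA, the receptor ACVR2B, SMAD9, ID2, ID3 and ID4 fell by 2-fold or more. TGFB1, the TGF-beta ligand with the highest level per transcript length, the receptor TGFBR2 and the target ID1 were not called. TGFB2, which had more reads than TGFB1 in every library, was called slightly higher. Of 56 members 51 passed the filter on low counts, and 15 of these were higher and 23 lower at an edgeR adjusted p under 0.05, against 27.3% higher and 28.8% lower among all 14012 genes tested. Upward calls made up 48.7% of all calls over all genes, and 38.7% when libraries were scaled on housekeeping genes, which gave 13 members higher and 24 lower. In either direction 38 of 51 members were called (74.5%), against 56.1% of all genes. The groups did not overlap in 45 of 51 members (88.2%), against 77.7% of all genes. Changes of 2-fold or more were called upward in 4 members and downward in 10, against 3.07% and 8.54% of all genes. The median log2 fold change (KDM1A shRNA over control) was −0.11 over the members and −0.0047 over all genes, and the median size of change was 0.36 against 0.24. BMP7, CHRD, SMAD9, ID2 and ID4 passed the filter through the control libraries alone and so had to be lower, which limits what these counts can show.

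**Figure D1:**
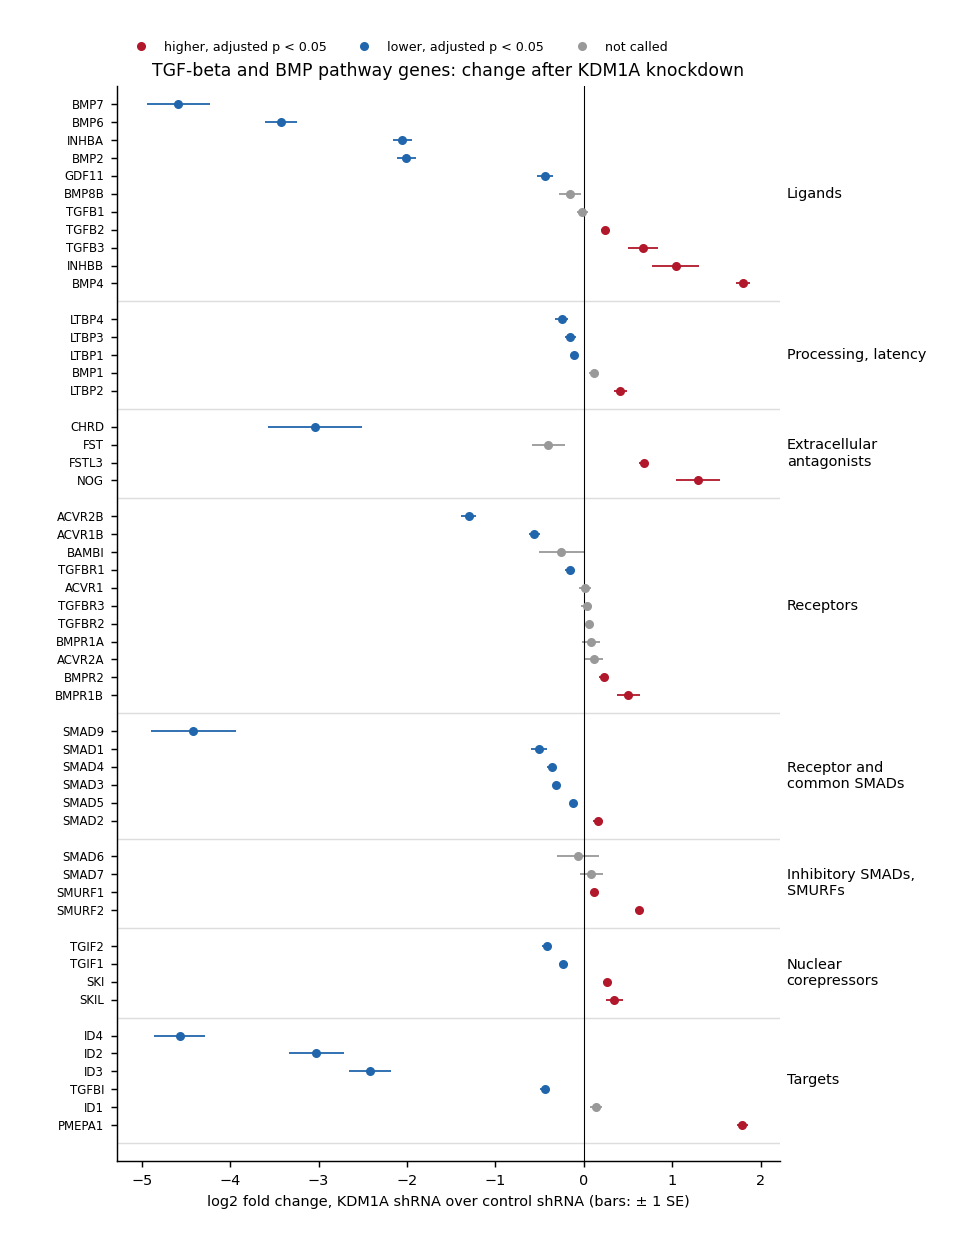
Log2 fold change of the 51 tested members (x axis, KDM1A shRNA over control shRNA; points with bars of ± 1 SE from edgeR), grouped by role, red for called higher, blue for called lower and grey for not called. The largest falls, from −2.01 to −4.59, are in the BMP and activin ligands, CHRD, SMAD9 and ID2 to ID4, while BMP4 and PMEPA1 stand at 1.80 and 1.79.

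Among the ligands, BMP4 rose while its closest relative BMP2 and the ligands BMP6 and BMP7 fell. BMP4, a secreted BMP encoded on chromosome 14 (54416454 to 54425479, minus strand, GRCh37), was read 388 and 412 times in control cells against 1291 and 1436 times in knockdown cells. Both knockdown libraries were far above both controls, at 54.8 ± 1.24 against 15.7 ± 1.76 CPM (SD, n = 2 libraries per group), a log2 fold change of 1.80 with an SE of 0.08 (edgeR adjusted p = 9.3e-11). BMP2 (chromosome 20, 6748333 to 6760893, plus strand) had 577 and 545 reads against 118 and 154. Its level fell to 24.8% of control, from 22.0 ± 0.65 to 5.45 ± 0.74 CPM (−2.01, SE 0.11, edgeR adjusted p = 1.1e-09).

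BMP6, a BMP best known for control of iron through hepcidin, had 238 and 216 control reads against 20 and 21, or 9.27% of control (−3.42, SE 0.18). BMP7, a BMP of kidney and bone development, had 170 and 132 reads against 1 and 11, or 3.97% of control (−4.59, SE 0.35). The 2 knockdown libraries differed in BMP7, whose log2 fold change was −6.98 without KDM1A shRNA library 2 and −3.78 without library 1. BMP8B had 183 and 183 reads against 150 and 170 and was not called (−0.16, edgeR adjusted p = 0.30). Reads that align equally well to the near-identical BMP8A were left out of both counts. BMP8A was called lower, but it passed the filter through the controls alone and could only be lower. CDKN2A stood at 4.99% and MTAP at 5.65% of control, within the range of BMP6 and BMP7, and their part in the fall of the BMP ligands was not tested. Exons of BMP6 overlap TXNDC5 on the other strand, and overlaps of this kind also touch ACVR2A, BMP8B, CHRD, GDF11, LTBP3, SMAD5, SMURF1, SMURF2 and TGFB1. The overlaps span 80 (BMP8B) to 735 (SMURF1) exon bases. Only reads within these stretches cannot be told from the partner's without strand. In bulk RNA, fewer cells that express a gene and less RNA per cell cannot be told apart.

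Because transcripts differ in length, the make-up of a ligand family was read from CPM per kb of transcript. Of the summed level of BMP2, BMP4, BMP6 and BMP7, BMP4 made up 42.9% and 46.7% in control cells and 94.5% and 93.5% in knockdown cells. BMP2 held 34.7% and 33.6% of that sum in the controls and 4.71% and 5.46% after knockdown. The summed level itself was 17.5 and 18.8 CPM per kb against 29.5 and 30.8, so that it was higher in both knockdown libraries although 3 of the 4 genes fell. These shares do not depend on the scaling of the libraries.

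The TGF-beta ligands moved far less. TGFB1, the most abundant of them per length at 34.6 and 41.4 CPM per kb in the controls, was at 37.3 and 37.8 CPM per kb after knockdown. The knockdown values lay between the 2 control values, and TGFB1 was not called (−0.02, SE 0.06, edgeR adjusted p = 0.85). Each control library alone gave a call in another direction, with −0.14 (adjusted p = 0.0043) without control library 1 and 0.12 (adjusted p = 0.023) without control library 2. TGFB2 rose slightly (0.24, SE 0.04, adjusted p = 0.00017), from 131 ± 0.53 to 154 ± 2.56 CPM. TGFB3 had 73 and 66 reads against 111 and 105 and also rose (0.67, SE 0.17, adjusted p = 0.0035), though it made up only 1.23% to 2.07% of the summed level per length of the 3 ligands in any library.

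The activin subunits went in opposite directions. INHBA, which forms activin A, had 541 and 466 control reads against 110 and 126, a fall to 24.0% of control (−2.05, SE 0.11, edgeR adjusted p = 8.1e-10). INHBB, which forms activin B, had 52 and 22 reads against 74 and 74 (1.04, SE 0.27, adjusted p = 0.0043). The 2 controls differ more than 2-fold in INHBB reads, and the change was 1.71 without control library 1 and 0.61 (edgeR adjusted p = 0.034) without control library 2. INHBA held 84.7% and 91.8% of the summed level per length of both subunits in the controls and 44.1% and 47.5% after knockdown. The summed level fell from 3.95 and 3.46 to 1.72 and 1.70 CPM per kb. GDF11, a relative of myostatin, was lower (459 and 456 against 321 and 337 reads; −0.44, SE 0.09). INHBE had 6 and 6 against 1 and 4 reads and NODAL 0 reads in every library, so neither was tested.

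**Figure D2:**
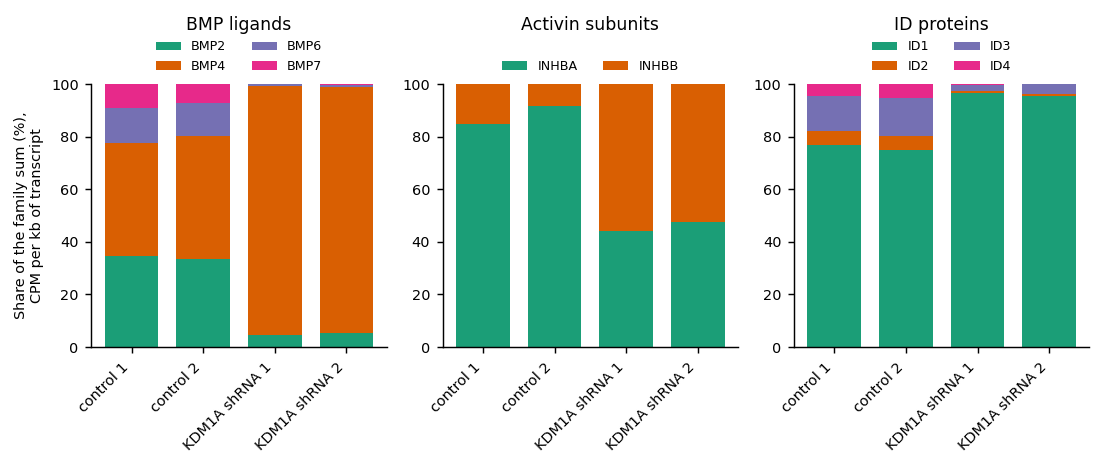
Share of each gene in the summed CPM per kb of its family (y axis, percent; bars for the 2 control shRNA and 2 KDM1A shRNA libraries) for 4 BMP ligands, the 2 activin subunits and the 4 ID genes. BMP4 takes over 93% of the BMP ligands and ID1 over 95% of the ID genes in both knockdown libraries, and INHBB about as much as INHBA.

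Genes that process or store the ligands changed little. BMP1, which despite its name is a procollagen protease that also frees BMPs from antagonists, was not called (0.11, SE 0.05, edgeR adjusted p = 0.075). The latent TGF-beta binding protein LTBP2 was higher (0.42, SE 0.07, adjusted p = 0.00020), with 834 and 693 reads against 902 and 1083. LTBP1 (−0.11), LTBP3 (−0.15) and LTBP4 (−0.25) were lower, but each of these 3 calls was lost under 1 or more alternatives, LTBP4 for example with an adjusted p of 0.052 without control library 2 and 0.21 in DESeq2. LTBP2 binds no latent TGF-beta, unlike the other 3.

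The extracellular antagonists did not move as a block. FSTL3, a follistatin-like binder of activins, was the most abundant antagonist per length in both groups. Its reads went from 1915 and 1865 to 2885 and 3016, a rise from 74.2 ± 3.80 to 119 ± 2.52 CPM (0.68, SE 0.05, edgeR adjusted p = 3.2e-08). NOG, encoding the BMP antagonist noggin, was low, with 29 and 21 reads against 53 and 67 (1.30, SE 0.25, adjusted p = 0.00046). CHRD, encoding the BMP antagonist chordin, had 19 and 25 reads against 2 and 3 (−3.04, SE 0.53, adjusted p = 0.00019), and part of its exons overlaps THPO on the other strand. The activin binder FST was not called (129 and 133 against 73 and 121 reads; −0.40, SE 0.19, adjusted p = 0.080), with the knockdown libraries unlike each other, and it passed in 5 of 12 alternatives. These were the replicate block (adjusted p = 0.020), housekeeping scaling (0.041), no filter (0.024), and without control library 1 (0.019) or KDM1A shRNA library 2 (−0.75, adjusted p = 0.0071). GREM1 (at most 1 read), LEFTY1 (at most 3) and LEFTY2 (0 reads) were not tested.

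Most receptors kept close to their control level. Of 11 receptor genes 2 were higher, 3 were lower and 6 were not called, or 45.5% called against the 56.1% of all genes. TGFBR2, the type II receptor of TGF-beta, stood far above the others at 298 and 298 CPM per kb in control cells and 310.5 and 310.5 with the KDM1A shRNA (0.06, SE 0.03, edgeR adjusted p = 0.13). It made up 96.1% to 96.5% of the summed level per length of the 4 type II receptors in every library. The same small difference passed without control library 1 (0.06, adjusted p = 0.0094) or without control library 2 (0.06, adjusted p = 0.0082).

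ACVR2B, a type II receptor for activins and GDF11, showed the largest change among the receptors, with 918 and 736 control reads against 308 and 346. The groups were well apart, at 32.3 ± 2.79 against 13.1 ± 0.39 CPM (−1.30, SE 0.08, edgeR adjusted p = 1.0e-08). Its sister gene ACVR2A had 291 and 282 against 277 and 328 reads and was not called (0.11, SE 0.10). Per length the order of the pair turned, from 2.91 and 2.58 (ACVR2B) above 2.08 and 2.23 (ACVR2A) CPM per kb to 1.09 and 1.14 below 2.22 and 2.44. In CPM, not divided by length, ACVR2B stayed above ACVR2A after knockdown, at 12.9 and 13.4 against 11.6 and 12.7. ACVR1B, the type I receptor ALK4 for activin and nodal, also fell (1304 and 1101 against 772 and 815 reads; −0.56, SE 0.06, adjusted p = 3.0e-06).

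The BMP type I receptor BMPR1B was higher (164 and 126 against 186 and 214 reads; 0.50, SE 0.13, edgeR adjusted p = 0.0043), and the BMP type II receptor BMPR2 was higher (0.23, adjusted p = 0.0015; 0.061 without KDM1A shRNA library 2). TGFBR1, the type I receptor of TGF-beta, was lower (−0.16, adjusted p = 0.019; lost in DESeq2 at 0.069). BMPR1A (0.08), ACVR1 (0.01) and the co-receptor TGFBR3 (0.03) were not called, with SEs of 0.06 to 0.10 and groups that overlap. BAMBI, a decoy receptor without a kinase, had 44 and 38 against 28 and 39 reads and was not called (−0.25, SE 0.25). Among type I receptors the order per length in the controls was TGFBR1, ACVR1B, ACVR1, BMPR1A and BMPR1B. After knockdown ACVR1 (8.46 and 9.31) stood above ACVR1B (7.11 and 6.97 CPM per kb). In CPM, not divided by length, ACVR1 stayed below ACVR1B after knockdown, at 28.2 and 31.0 against 32.2 and 31.6.

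**Figure D3:**
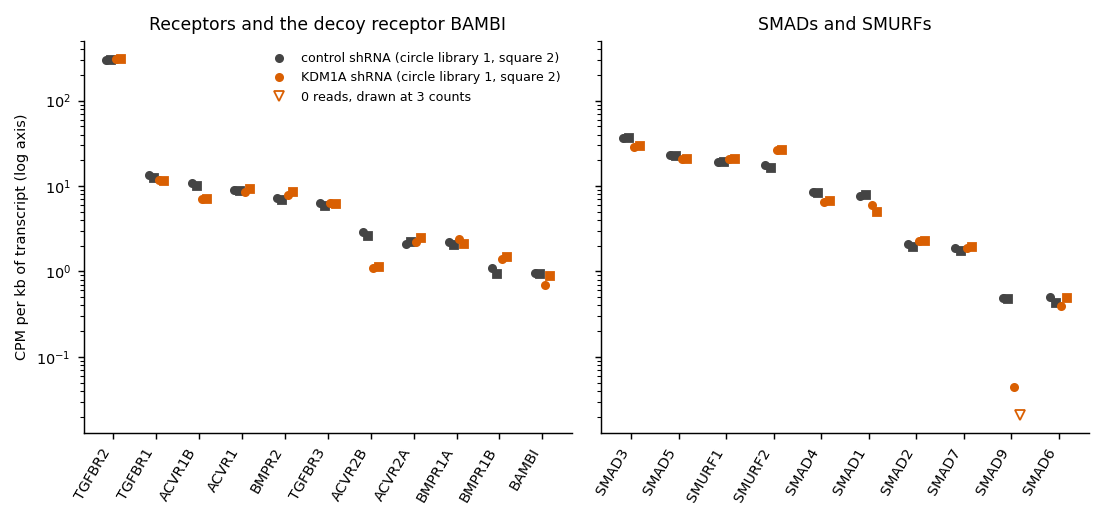
Level of receptors (left) and of SMADs and SMURFs (right) in CPM per kb of transcript on a log axis, 1 point per library, with control shRNA in dark grey and KDM1A shRNA in orange. TGFBR2 stands above all other receptors at 298 to 311 CPM per kb, and SMAD9 falls from 0.48 to 0.045 in one knockdown library and to 0 reads in the other (open triangle, drawn at 3 counts).

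The SMADs that receptors activate, and SMAD4, were mostly a little lower. All 6 were called, 5 lower and 1 higher, against 28.8% lower and 27.3% higher over all genes, though SMAD9 passed the filter through the controls alone and the calls of SMAD2 and SMAD5 were lost under some alternatives. SMAD9 (SMAD8), the least abundant BMP SMAD, had 72 and 65 control reads against 6 and 0 (−4.42, SE 0.48, edgeR adjusted p = 2.2e-06). Its size rests on few reads: it was −3.39 without KDM1A shRNA library 2, and against the 0 reads of library 2 alone, set to 3 counts, SMAD9 was at least 23.1-fold lower. SMAD1, which carries BMP signals, had 618 and 579 reads against 434 and 388 (−0.50, SE 0.09, adjusted p = 0.00027). SMAD5, the BMP SMAD with the highest level per length, differed by less (−0.12, SE 0.04, adjusted p = 0.021; 0.081 in DESeq2), and exons of SMAD5-AS1 on the other strand overlap its exons. SMAD5 made up 73.6% and 72.5% of the 3 BMP SMADs per length in the controls and 77.4% and 80.5% after knockdown.

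In the TGF-beta branch SMAD3 fell from 235 ± 2.28 to 189 ± 2.99 CPM (6237 and 5728 against 4473 and 4928 reads; −0.31, SE 0.04, edgeR adjusted p = 6.7e-06). The common partner SMAD4 fell from 74.2 ± 0.77 to 57.8 ± 0.57 CPM (−0.36, SE 0.05, adjusted p = 2.6e-05). SMAD2 was higher (0.16, SE 0.05, adjusted p = 0.020), a call lost in DESeq2 (0.062), with housekeeping scaling (0.12) and without control library 2 (0.10) or either knockdown library. The annotated SMAD2 transcript is 34626 bases long, so its level per kb is not compared with that of SMAD3.

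Of the negative regulators, the inhibitory SMADs were not called and the ubiquitin ligases were higher. SMAD6, which blocks BMP signals, had 51 and 40 against 36 and 49 reads (−0.06, SE 0.24), and SMAD7, which blocks TGF-beta signals, 168 and 139 against 151 and 166 reads (0.08, SE 0.13, edgeR adjusted p = 0.61). At SEs of this size a small difference in either gene could not have been detected. SMURF2, a ligase that SMAD7 brings to the TGF-beta receptor, rose from 106 ± 5.36 to 164 ± 0.23 CPM (2944 and 2483 against 3937 and 4233 reads; 0.63, SE 0.05, adjusted p = 2.8e-08). SMURF1 was called slightly higher (0.12, adjusted p = 0.027), and this call was lost in 6 of 13 alternatives. Of the nuclear corepressors of SMADs, SKI (0.26, SE 0.05) and its relative SKIL (0.35, SE 0.10) were higher and TGIF1 (−0.23, SE 0.05) and TGIF2 (−0.42, SE 0.05) lower, so both pairs moved apart. SKIL missed the threshold once KDM1A shRNA library 1 was left out (adjusted p = 0.086).

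The 6 target genes also divided. PMEPA1, a SMAD3 target whose membrane protein limits TGF-beta signals (chromosome 20, 56223448 to 56286592, minus strand, GRCh37), went from 711 and 612 reads to 2242 and 2224. It rose from 25.9 ± 0.93 to 89.9 ± 5.24 CPM (1.79, SE 0.06, edgeR adjusted p = 1.2e-11). TGFBI, an extracellular matrix protein induced by TGF-beta, fell from 69.4 ± 0.41 to 51.0 ± 0.75 CPM (−0.44, SE 0.05, adjusted p = 4.6e-06). Thus 2 genes that both answer TGF-beta in many cells changed in opposite directions here.

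The ID genes encode helix-loop-helix proteins without a DNA-binding region, which block E-box factors. ID1 (chromosome 20, 30193086 to 30194318) had 695 and 661 reads against 673 and 785 and was not called (0.14, SE 0.07, edgeR adjusted p = 0.11). ID2 (chromosome 2, 8818975 to 8824591) had 64 and 63 reads against 6 and 9 (−3.03, SE 0.32, adjusted p = 1.4e-06). ID3 (chromosome 1, 23884417 to 23885992) had 118 and 124 reads against 16 and 28 (−2.42, SE 0.23, adjusted p = 6.5e-07).

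ID4 (chromosome 6, 19837601 to 19842428) had 161 and 186 reads against 9 and 5, a fall to 4.16% of control (−4.57, SE 0.29, edgeR adjusted p = 6.6e-09). In each of these 3 falls both knockdown libraries lay far below both controls, whereas the ID1 groups, at 26.6 ± 0.92 and 29.3 ± 1.64 CPM, did not overlap but did not pass the test. ID1 made up 76.7% and 74.8% of the summed level per length of the 4 genes in the controls and 96.6% and 95.5% after knockdown. The sum was 34.4 and 37.1 CPM per kb against 29.6 and 32.4, since the gene that was not called is also the most abundant. In all, 6 members were lower by 8-fold or more, namely BMP6, BMP7, CHRD, SMAD9, ID2 and ID4, or 6 of 51 against 3.03% of all genes. Of these, 5 (all but BMP6) passed the filter through the controls alone and could only be lower, so nothing is read from this count. CDKN2A (323 and 329 against 13 and 19 reads), MTAP (271 and 256 against 15 and 14) and CDKN2B (27 and 31 against 0 and 1) fell by as much. Their part in the fall of ID2 to ID4, SMAD9 and CHRD was not tested.

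**Figure D4:**
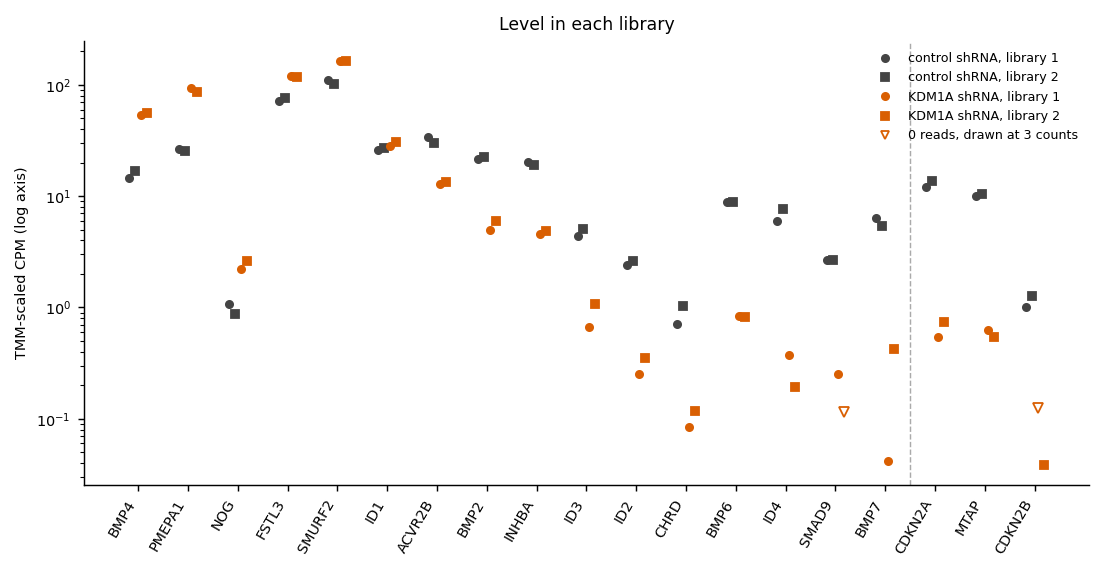
TMM-scaled CPM on a log axis for 16 members and, right of the dashed line, CDKN2A, MTAP and CDKN2B, 1 point per library (dark grey control shRNA, orange KDM1A shRNA; circle library 1, square library 2; open triangle, 0 reads drawn at 3 counts). The groups do not overlap in any gene shown, and ID1 is the gene in which they lie closest.

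The promoters of the ID genes and of PMEPA1 are shown as examples of targets that went 3 ways, with ID1 not called, ID2 to ID4 down and PMEPA1 up. Other targets among the members, such as SMAD7, SKIL and TGFBI, are not shown. Each window is the 250 bases before the RefSeq start site, 5′ to 3′ on the gene's strand, on GRCh38.p14 (unlike the gene positions above, which are on GRCh37). Capitals mark GGCGCC, a GC-rich element that BMP SMADs can bind, and CAGAC or its reverse complement GTCTG, the core that SMAD3 and SMAD4 bind.
ID1, chr20:31605039-31605288, plus strand: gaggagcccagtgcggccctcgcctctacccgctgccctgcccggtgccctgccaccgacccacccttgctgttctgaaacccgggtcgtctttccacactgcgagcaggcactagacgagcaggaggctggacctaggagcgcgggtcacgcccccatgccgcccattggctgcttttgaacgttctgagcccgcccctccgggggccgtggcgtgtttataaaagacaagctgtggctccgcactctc
ID2, chr2:8681806-8682055, plus strand: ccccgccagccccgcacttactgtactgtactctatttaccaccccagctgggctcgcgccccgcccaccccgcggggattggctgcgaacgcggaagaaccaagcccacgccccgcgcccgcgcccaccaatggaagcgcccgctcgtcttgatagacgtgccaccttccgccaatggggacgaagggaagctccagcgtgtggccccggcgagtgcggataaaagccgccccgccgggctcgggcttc
ID3, chr1:23559502-23559751, minus strand: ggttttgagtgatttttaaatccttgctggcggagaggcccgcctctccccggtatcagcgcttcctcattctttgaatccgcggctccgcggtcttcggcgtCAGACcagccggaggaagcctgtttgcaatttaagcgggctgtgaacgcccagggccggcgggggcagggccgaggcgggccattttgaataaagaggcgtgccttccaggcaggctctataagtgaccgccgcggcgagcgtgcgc
ID4, chr6:19837120-19837369, plus strand: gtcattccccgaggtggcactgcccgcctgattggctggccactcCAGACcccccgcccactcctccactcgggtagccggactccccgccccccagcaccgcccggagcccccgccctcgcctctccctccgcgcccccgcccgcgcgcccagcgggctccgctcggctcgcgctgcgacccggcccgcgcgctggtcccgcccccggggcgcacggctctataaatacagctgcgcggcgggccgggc
PMEPA1, chr20:57711473-57711722, minus strand: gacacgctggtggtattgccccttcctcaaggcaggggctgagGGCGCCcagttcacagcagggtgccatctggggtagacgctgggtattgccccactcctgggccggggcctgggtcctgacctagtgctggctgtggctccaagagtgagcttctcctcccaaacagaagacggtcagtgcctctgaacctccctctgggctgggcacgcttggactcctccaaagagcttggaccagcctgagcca

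ID1 and ID2 held neither motif in this window, ID3 held 1 CAGAC beginning 147 bases before the start, and ID4 held 1 beginning 205 bases before it. PMEPA1 held 1 GGCGCC, 207 bases before its start. No window held more than 1 match, so none overlap. GGCGCC was found in 16.1% of all 27305 RefSeq windows of this length and CAGAC in 37.8%. A match of letters is a description only. ID2, which fell, and ID1, which was not called, were alike in holding none.

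Genes of the pathway outside the 56 were taken from a list of 71 other ligands, receptors, binding proteins and SMAD partners. Of these 47 were tested, of which 12 were higher and 19 lower (25.5% and 40.4%, against 27.3% and 28.8% of all genes), with a median of −0.07 on the log2 scale. The higher share was thus near that of all genes. Through the controls alone 4 of them passed the filter and could only be lower. Another 3 passed through the knockdown libraries alone and could only be higher. That limits what these counts can show. NEO1, encoding neogenin, which with RGM proteins acts as a BMP co-receptor, fell to 19.8% of control (710 and 628 against 124 and 134 reads; −2.34, SE 0.10, edgeR adjusted p = 6.5e-11). The TGF-beta binding proteoglycan DCN fell from 123 ± 4.18 to 55.0 ± 3.78 CPM (−1.16, SE 0.05). RBL1 (p107), which joins SMAD3 and E2F4 in repression of MYC, rose from 34.9 ± 0.39 to 71.4 ± 1.36 CPM (1.03, SE 0.06). The distant ligand GDF15 (−1.77, SE 0.12), the endocytic adaptor DAB2 (−0.89, SE 0.06) and the follistatin-like FSTL1 (−0.58, SE 0.04) fell, all with non-overlapping groups.

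A list of 36 further genes known to follow TGF-beta or BMP in cultured cells had 33 tested, 10 higher and 18 lower (30.3% and 54.5%, against 27.3% and 28.8% of all genes), with a median of −0.26. Here too the higher share was near that of all genes. MSX1 and DLX2 passed the filter through the controls alone and could only be lower, which limits these counts. The 6 with the smallest p included 1 rise, in THBS1, an activator of latent TGF-beta (15766 and 13493 against 25580 and 27559 reads; 0.90, SE 0.04, edgeR adjusted p = 5.5e-11). The matrix protein FN1 fell (−1.11, SE 0.04), as did TSC22D1, a leucine zipper gene (680 ± 1.47 to 423 ± 3.35 CPM; −0.68, SE 0.03), and BHLHE40, a repressor of the circadian clock (−0.53, SE 0.04). Deeper falls were in the BMP-responsive genes HEY1 (409 and 441 against 35 and 36 reads; −3.54, SE 0.16) and MSX1, a homeobox gene (115 and 110 against 0 and 4 reads; −5.69, SE 0.42). MSX1 was −4.79 without KDM1A shRNA library 1 and at least 35.2-fold lower against library 1 alone, whose 0 reads were set to 3 counts. HEY1 stood at 8.54% and MSX1 at 1.76% of control, beside 4.99% for CDKN2A, 5.65% for MTAP and 1.70% for CDKN2B. The part of that locus in these falls was not tested.

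**Figure D5:**
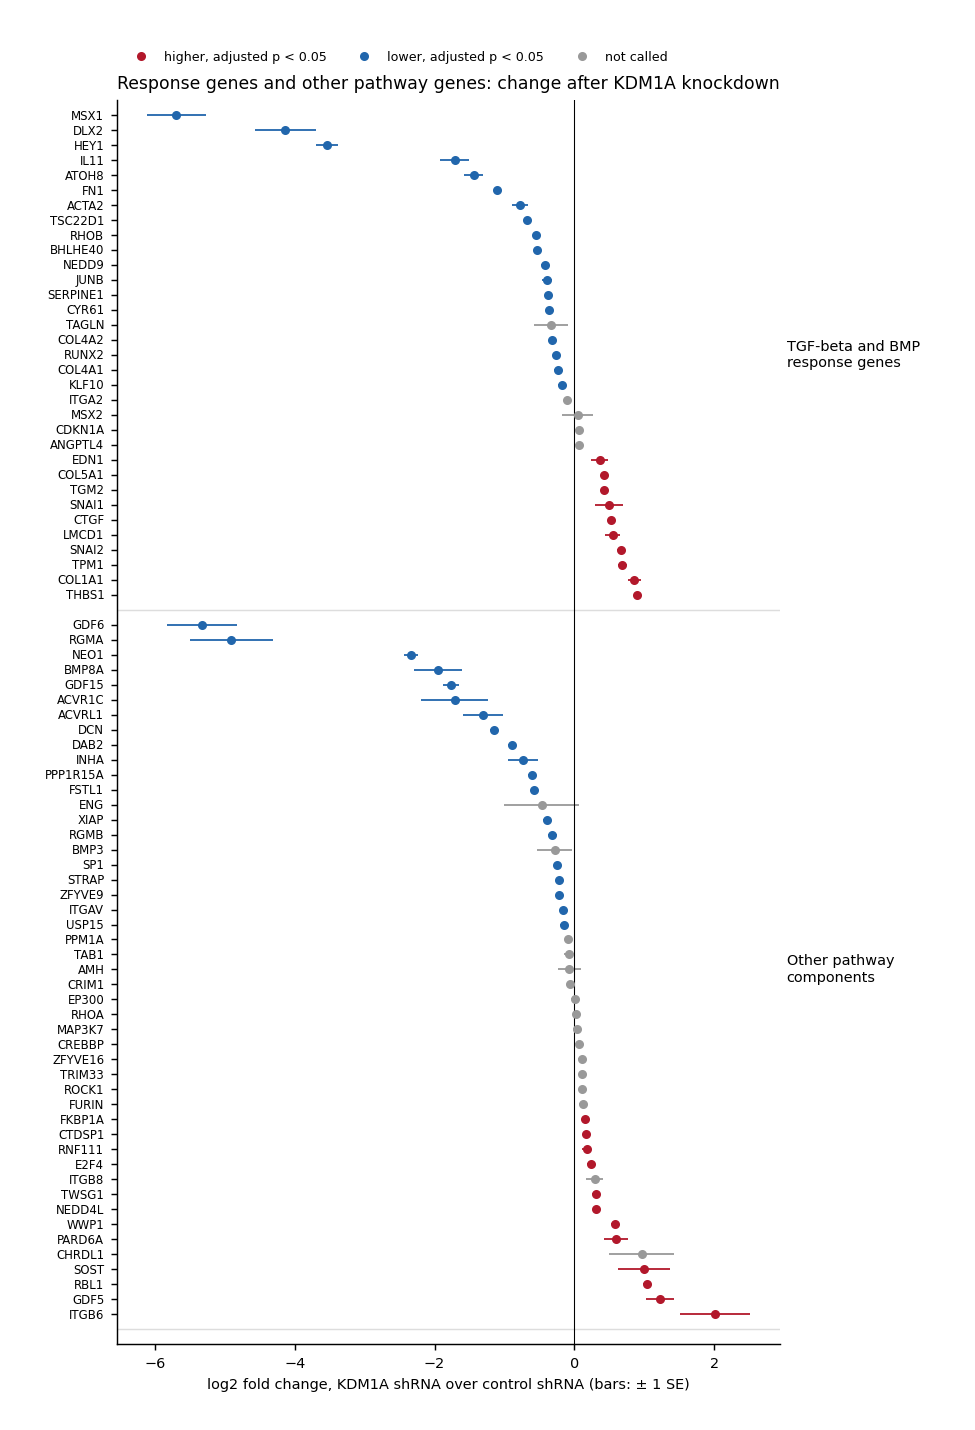
Log2 fold change (x axis, KDM1A shRNA over control shRNA; bars of ± 1 SE from edgeR) of the 33 tested response genes and the 47 tested other pathway components, red for called higher, blue for called lower and grey for not called. The response genes range from −5.69 in MSX1 to 0.90 in THBS1. MSX1, DLX2, GDF6 and RGMA, at the low end, passed the filter through the controls alone and could only be lower. In all, 2 response genes and 4 other components passed in this way. A further 3 other components passed through the knockdown libraries alone and could only be higher.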

How the data were processed

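Total RNA of the 4 libraries was sequenced as single ends of 100 bases, per the labels' protocols. The authors deposited raw counts of reads for each gene symbol, separately for each library. The authors used CASAVA 1.8.2, TopHat2 2.0.8b and HTSeq with hg19, per the submitters' processing notes. The strand setting of the counting and the annotation release are not given in the sources used here. Reads aligned to more than 1 place were left out by HTSeq, so near-identical paralogs are uncertain.

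The 5 HTSeq summary lines were left out. The test was that of edgeR 4.0.16 under R 4.3.3 (TMM scaling, filterByExpr with a minimum count of 10 and a minimum total of 15, quasi-likelihood F-test, group as the only term). P-values were adjusted by Benjamini-Hochberg over all 14012 genes tested, with a threshold of 0.05. The edgeR test was tried first on simulated counts, in which far fewer genes were changed than were called here. Nothing is drawn from that trial. The SE of a log2 fold change is its size divided by the square root of F.

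CPM are counts scaled by the TMM-adjusted library total. CPM per kb divides them by the length of the canonical transcript in GENCODE 44 mapped to GRCh37, which may differ from the annotation behind the counts. The members and all gene lists were chosen with earlier results of these data known, from general knowledge of the pathway. All 56 members could be named. Reads per library are given for members past the threshold with a log2 fold change of 0.5 or more in size, and for relatives described beside them. Of each other list the 6 genes with the smallest p are named. Alternatives were RLE, upper quartile, library size and housekeeping scaling, 2 other filters, DESeq2 1.42.0, limma-voom (limma 3.58.1), the replicate number as a block, and each library left out in turn.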

Additional observations from a re-analysis of the deposited data

How the results depend on the processing

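Of the 38 members called, 29 kept their direction and call under every one of 13 alternatives that tested them. The other 9 (LTBP1, LTBP3, LTBP4, TGFBR1, BMPR2, SMAD2, SMAD5, SMURF1, SKIL), all with a log2 fold change under 0.5 in size, lost the call under at least 1, and none of the 38 turned. Members called higher numbered 11 to 16 and lower 16 to 24 over the alternatives. The replicate block gave 15 and 24. The deviations of same-numbered libraries in the 2 groups were barely correlated over genes. Pearson r was 0.011 over all genes tested and 0.038 over genes with a mean of 5 CPM or more. A batch shared by same-numbered libraries was not tested. With housekeeping scaling calls upward made up 38.7% of all calls over all genes, against 48.7%, and 35.1% against 39.5% in the members. Other components called higher dropped from 12 to 7 with a mean of at least 5 CPM, which tests 34 of them, and were 7 to 14 with 1 library left out. Of the members not called, 5 turned in sign: TGFBR3 (−0.027 with housekeeping scaling; −0.030 to 0.096 with a library left out), ACVR1 (−0.011 with upper quartile, −0.043 with housekeeping scaling, −0.0077 with the 5 CPM minimum; −0.054 to 0.082), and with a library left out TGFB1 (−0.14 to 0.12), BMPR1A (−0.031 to 0.19) and SMAD6 (−0.24 to 0.093). The cause was not tested. Members near the floor (BMP7, SMAD9, CHRD, NOG) rest on few reads.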

Other observations

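RefSeq windows of 250 bases before the start were matched for 48 of the 56 members. GGCGCC was in 16 of these 48 (33.3%), against 16.1% of 27305 windows, and CAGAC in 17 (35.4%), against 37.8%. The members' windows were also richer in G and C, with a median of 69.8% against 58.0%, and a GC-rich motif was not compared at equal GC content. ACVR1B, which fell, held 4 copies of GGCGCC, and BAMBI, which was not called, held 3. ACVR2B, SMAD9, BMP6 and INHBA, which fell, and TGFB1 and TGFBR2, which were not called, held neither motif.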
